A study of Mus musculus with 22 samples.

Results

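The genes described here are those of MHC class I antigen presentation: the heavy chains *H2-K1*, *H2-D1* and *H2-T23*, their shared light chain *B2m*, the peptide transporter subunits *Tap1* and *Tap2*, the loading factor tapasin (*Tapbp*), the immunoproteasome subunits *Psmb8* and *Psmb9*, and the class I transactivator *Nlrc5*. The members were chosen by name, as a list of 10 pathway genes, and 9 of the 10 were found among the 55401 gene identifiers of the count table. *Psmb9* was not analysed here, because neither of the identifiers paired with that symbol occurred in the table. All 9 passed the filter on low counts in every fit. RNA was sequenced from mouse embryonic fibroblasts (MEFs), primary cells grown from mid-gestation embryos on a C57BL/6 background, in 2 sets and 22 libraries. The S6K1 set held *S6K1* WT cells at passage 3 (early WT, n = 4) and passage 8 (late WT, n = 4) and *S6K1* KO cells at passage 8 (late KO, n = 3). The *S6K1/S6K2* set held *S6K1/S6K2* WT cells at passage 3 (n = 4) and passage 8 (n = 4) and *S6K1/S6K2* double knockout (DKO) cells at passage 8 (n = 3). No treatment other than serial passage to replicative senescence was applied, and no knockout cells at passage 3 were analysed here, so a knockout effect could be examined at late passage alone. Per the study's methods, the WT controls of the DKO cells came from WT mothers at an earlier stage of the breeding, whereas *S6K1* WT and KO cells were prepared as littermates.

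MHC class I molecules display peptides made inside the cell to CD8+ T cells. The proteasome cuts proteins into peptides, TAP1 and TAP2 carry these into the endoplasmic reticulum, tapasin holds an empty heavy chain with its β2-microglobulin beside the transporter, and the loaded complex goes to the cell surface. Most cell types carry class I, fibroblasts at a low level and macrophages at a high one, and interferons, NF-κB and NLRC5 raise its transcription. The study asked how S6 kinases shape the inflammatory secretome of senescent cells, and these comparisons ask how the class I pathway behaved across the same passages and genotypes.

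All members but *B2m* and *Nlrc5* lie within the major histocompatibility complex. In the RefSeq annotation of GRCm38.p6, *Tapbp* spans chr17:33919478-33929290, *H2-K1* chr17:33996012-34000619, *H2-D1* chr17:35263094-35267497 and *H2-T23* chr17:36029977-36032701. *Psmb9* (chr17:34182030-34187330), *Tap1* (chr17:34187556-34197225), *Psmb8* (chr17:34198195-34201454) and *Tap2* (chr17:34204479-34216321) are direct neighbours. *B2m* lies at chr2:122147687-122153082 and *Nlrc5* at chr8:94434335-94527272.

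The class I promoter is known for a compact block of elements: an NF-κB site, an interferon response element bound by IRF factors, and an SXY module that recruits NLRC5, in which the X2 box resembles a CRE and the Y box is an inverted CCAAT. The promoter stretches of the members with the highest counts are shown so that these elements can be seen in order. They are written 5′ to 3′ on the gene's strand, from 10 bases before the first IRF or κB match to 10 bases after the inverted CCAAT. Capitals mark matches, on either strand, to the IRF core AANNGAAA, the κB consensus, the X2 core TGACG and the CCAAT box.
H2-K1, chr17:34000349-34000468, minus strand: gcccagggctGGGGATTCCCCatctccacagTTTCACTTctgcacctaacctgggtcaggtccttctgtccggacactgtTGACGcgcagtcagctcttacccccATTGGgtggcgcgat
H2-D1, chr17:35262913-35263032, plus strand: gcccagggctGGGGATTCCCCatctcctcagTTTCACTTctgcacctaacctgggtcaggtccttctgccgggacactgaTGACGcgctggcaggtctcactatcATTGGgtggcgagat
B2m, chr2:122147540-122147648, plus strand: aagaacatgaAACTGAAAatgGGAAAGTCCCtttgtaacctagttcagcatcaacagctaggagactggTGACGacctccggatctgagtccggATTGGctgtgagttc

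The stretches of *H2-K1* and *H2-D1* were identical at 108 of 120 bases, and in both the order was κB, IRF, X2, inverted CCAAT. In *B2m* the IRF match came first and overlapped no other. The capitals of *H2-K1* and *H2-D1* near the 5′ end hold a pair of overlapping κB matches on each strand. Windows of 300 bases, from 250 before to 50 after the RefSeq start, were present for 8 members, among them *Psmb9* and none for *Tap2* or *Nlrc5*. The IRF core was found in 4 of the 8 (*H2-K1*, *H2-D1*, *H2-T23* and *B2m*), against 26.7% of all 27025 genes with a window. The κB consensus was found in 3 of 8 against 9.55% of all genes, the X2 core in 5 of 8 against 23%, and the CCAAT box in 7 of 8 against 41.1%. *Psmb8* held none of these letters in its window. The windows of *Tap1* and *Psmb9* shared 275 bases on opposite strands, so their X2 matches are the same bases, and so are their CCAAT matches. A match describes the letters and does not show that a factor was bound.

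**Figure D1:**
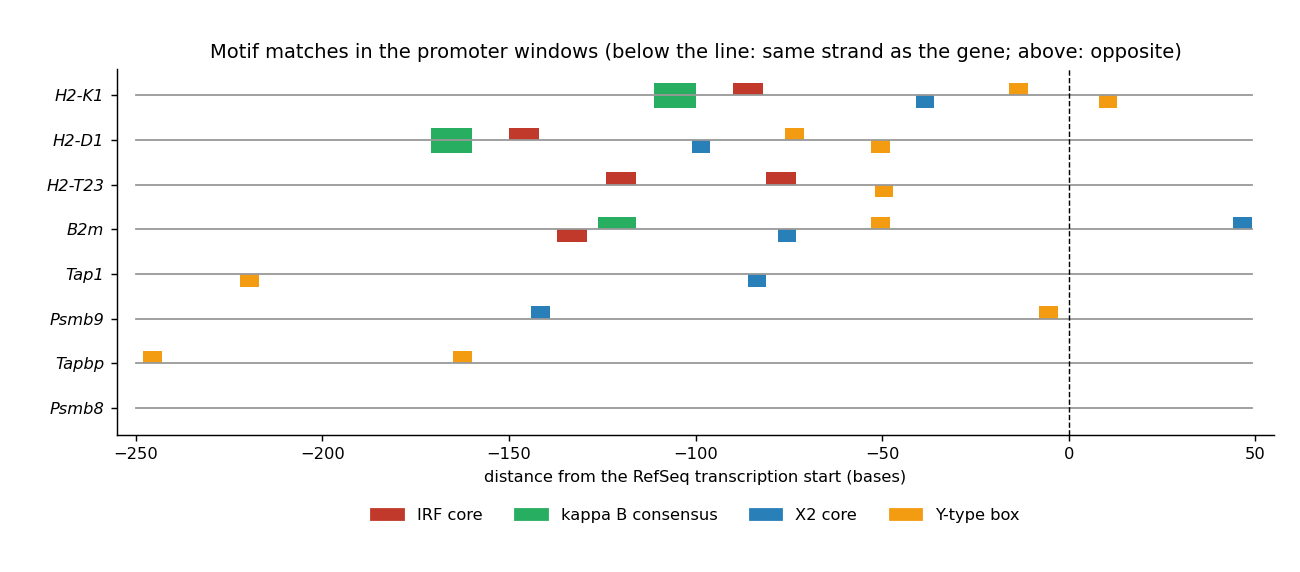
Matches to the IRF core (red), κB consensus (green), X2 core (blue) and CCAAT or Y-type box (orange) in the RefSeq promoter windows of 8 members, by distance in bases from the annotated start (dashed line), drawn below the line for the gene's strand and above it for the opposite strand. H2-K1 and H2-D1 carry the same 4 elements in the same order, with the block farther from the annotated start in H2-D1, and Psmb8 carries no match.

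Library totals ran from 10742454 to 17314832 counts, and no 2 libraries of a group agreed within sampling noise (chi-square per degree of freedom at least 20.6). *Rps6kb1*, which encodes S6K1, was at 14.1 to 23.2 CPM (counts scaled to library size) in the KO libraries and 19.9 to 28.3 in the DKO libraries, below all WT libraries (56.5 to 94.3). *Rps6kb2*, which encodes S6K2, was at 0.471 to 1.36 CPM in the DKO libraries, below all WT libraries, so no knockout library went against its label. Fibroblast markers summed to 29600 to 36000 CPM in early WT, 19200 to 26700 in late WT and 24100 to 26100 in KO libraries of the S6K1 set. In the *S6K1/S6K2* set the sums were 30300 to 39400, 19500 to 26700 and 24600 to 27900 CPM. Every late library thus lay below every early WT library of its set. *Col1a1*, a chain of type I collagen, averaged 3673 CPM or more in each group, and fell with passage in the S6K1 set (log2 -0.87, adjusted p = 0.0444). Libraries that held Y-linked transcripts numbered 2 of 4, 1 of 4 and 3 of 3 in the S6K1 set and 2 of 4, 3 of 4 and 1 of 3 in the *S6K1/S6K2* set, in the order early WT, late WT, knockout. Macrophage markers also differed between the groups. The 17 markers with a row summed to 478 to 1060 CPM in early WT, 5070 to 10500 in late WT and 3370 to 4590 in KO libraries of the S6K1 set. The sums in the *S6K1/S6K2* set were 569 to 1860, 6760 to 11800 and 815 to 3060. T, B and NK lymphocyte markers summed to at most 0.652 CPM, with *Cd8a* and *Ncr1* at 0 counts in all 22 libraries. Endothelial markers summed to 3.88 to 14.5 CPM and epithelial markers to 8.53 to 87.8 CPM. The epithelial sums were higher in all early WT libraries (40.8 CPM or more) than in all late libraries (37.6 CPM or less). In bulk RNA, a change in the number of cells of a type and a change in RNA per cell cannot be told apart.

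*H2-D1*, the heavy chain of H-2D, moved in both sets and was the member whose calls held most widely. CPM values here were scaled by TMM factors over all 22 libraries. In the S6K1 set its level was 119.7, 116, 133 and 55.5 CPM in early WT, 320.4, 241, 259 and 252 CPM in late WT, and 168, 263 and 144 CPM in KO libraries. Every late WT library exceeded every early WT library, and the KO libraries lay between, with 1 of the 3 inside the late WT range. In the *S6K1/S6K2* set *H2-D1* was at 152, 141.5, 156 and 143 CPM in early WT, 247.5, 256, 226 and 208 CPM in late WT, and 146, 115 and 112 CPM in DKO libraries. Late WT stood apart from both other groups of this set, whereas early WT and DKO overlapped. From the highest group mean to the lowest, *H2-D1* ran late WT of the S6K1 set (268 ± 35.5 CPM, SD, n = 4), late WT of the *S6K1/S6K2* set (234 ± 21.7, n = 4), KO (192 ± 63.1, n = 3), early WT of the *S6K1/S6K2* set (148 ± 6.94, n = 4), DKO (124 ± 18.9, n = 3) and early WT of the S6K1 set (106 ± 34.4, n = 4). Each neighbouring pair in that order had overlapping libraries.

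With passage, *H2-D1* was 2.53-fold higher in late than in early WT of the S6K1 set (log2 fold change 1.34, SE 0.26, adjusted p = 0.00518) and 1.63-fold higher in the *S6K1/S6K2* set (log2 0.71, SE 0.11, adjusted p = 0.0025). These are edgeR quasi-likelihood tests with Benjamini-Hochberg adjustment over all genes tested. In the S6K1 set 2 of the 9 members rose with passage (*H2-D1* and *Tap2*) and none fell, against 6.96% of all 14132 genes called higher and 5.97% called lower. In the *S6K1/S6K2* set 2 of 9 rose (*H2-D1* and *H2-K1*) and none fell, against 8.28% of 14365 genes called higher and 4.89% called lower. The fitted change was positive for 9 of 9 members in the S6K1 set, with a median of 0.61 on the log2 scale against -0.04 over all genes. It was positive for 8 of 9 in the *S6K1/S6K2* set, with a median of 0.44 against 0.01. The *H2-D1* calls held under all 17 alternatives of each set, with adjusted p from 1.06e-05 to 0.0163 and from 2.65e-07 to 0.0326. Macrophage markers moved alongside: 16 of the 17 tested rose with passage in each set, with a median log2 fold change of 2.93 in the S6K1 set and 2.36 in the *S6K1/S6K2* set, and their part in the class I changes was not tested.

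*H2-K1*, the heavy chain of H-2K, followed with a smaller change. Its level in the S6K1 set was 87.7, 147, 125 and 70.1 CPM in early WT, 254.5, 188, 138 and 212 CPM in late WT and 106, 185 and 96.8 CPM in KO libraries. One early WT library lay above the lowest late WT library, and the log2 fold change of 0.88 (SE 0.28) did not pass the threshold (adjusted p = 0.0577), although it passed under 5 of 17 alternatives. *H2-K1* in the *S6K1/S6K2* set was at 109, 102, 102 and 95.7 CPM in early WT, 150.1, 143, 127 and 120.5 CPM in late WT and 107, 79.1 and 74.9 CPM in DKO libraries. Late WT libraries did not overlap with either other group, and the passage change there was 1.37-fold (log2 0.45, SE 0.12, adjusted p = 0.034). That call was close to the threshold: it held under 6 of 17 alternatives and was lost when any of the 4 early WT libraries, 3 of the 4 late WT libraries or DKO replicate 2 was left out (highest adjusted p 0.0967 among these). With all 6 groups in the fit the adjusted p was 0.235.

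*H2-T23* encodes Qa-1, a non-classical heavy chain that presents leader peptides of other class I molecules to natural killer cell receptors. It was at 26.3, 27, 29.5 and 10.5 CPM in early WT and 39.7, 45.9, 41 and 38 CPM in late WT of the S6K1 set, with no overlap, yet its log2 fold change of 0.82 (SE 0.25) had an adjusted p of 0.0509 and passed under 7 of 17 alternatives. Without early WT replicate 4, the low library, the change was 0.58 with an adjusted p of 0.028. In the *S6K1/S6K2* set it was at 25.5 to 29.7 CPM in early WT and 29.9 to 39.5 CPM in late WT (log2 0.44, SE 0.18, adjusted p = 0.115). The 3 KO libraries (34.5, 42.4 and 29.7 CPM) and the 3 DKO libraries (46.6, 29.3 and 24.5 CPM) each spanned a range that overlapped with that of late WT.

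*B2m*, the light chain without which heavy chains do not reach the surface, had the highest level per length of all members. Scaled by exon length in GENCODE vM1, it stood at 1340 CPM per kb (range 1120 to 1500, n = 4) in early WT of the S6K1 set, against 40.9 for *H2-D1*, 41.1 for *H2-K1*, 47 for *Tapbp*, 9.29 for *Psmb8*, 8.07 for *H2-T23*, 6.27 for *Tap2* and 4.04 for *Tap1*. In CPM, *B2m* was at 1215, 1293, 1132 and 967 in early WT, 2200, 1877, 1126 and 1774 in late WT and 1637, 2391 and 1590 in KO libraries. A single late WT library lay within the early WT range and the other 3 above it. The log2 fold change with passage was 0.59 (SE 0.22, adjusted p = 0.104), and without late WT replicate 3, that lone library, it was 0.80 (adjusted p = 0.0294). It passed under 2 of 17 alternatives, over which it ran from 0.46 to 0.80. *B2m* in the *S6K1/S6K2* set was at 1150, 1121, 1426 and 1061 CPM in early WT, 2098, 1652, 2052 and 957 CPM in late WT and 1657, 2010 and 1655 CPM in DKO libraries. Here 1 late WT library fell below the early WT range, and the log2 fold change of 0.55 (SE 0.22) did not pass (adjusted p = 0.114). Without that library, late WT replicate 4, it was 0.74 (adjusted p = 0.0132). It passed under 1 of 17 alternatives, over which it ran from 0.39 to 0.74.

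**Figure D2:**
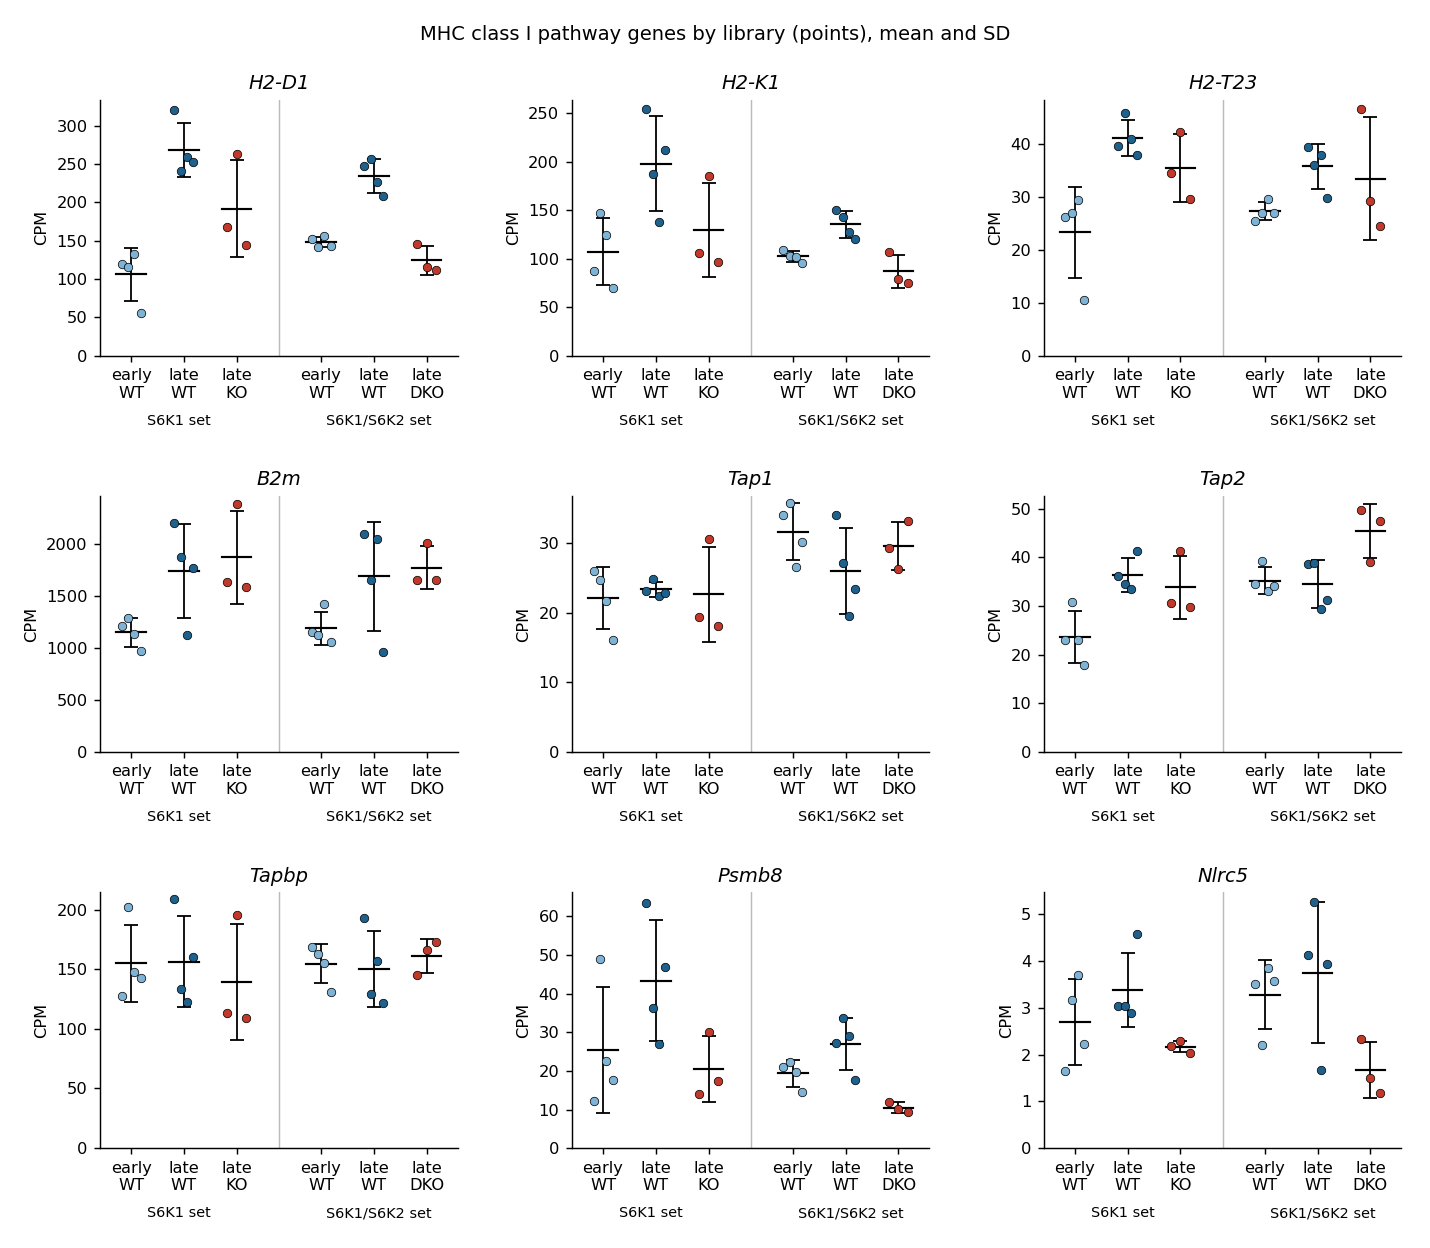
CPM (vertical axis, from 0) of the 9 members in each of the 22 libraries (points), by group, with the group mean (wide bar) and SD (error bar). H2-D1 is higher in all late WT than in all early WT libraries of both sets, and H2-D1, H2-K1 and Psmb8 are lower in all 3 DKO than in all 4 late WT libraries, while B2m in DKO stays within the late WT range.

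The peptide supply genes did not move as a block. *Tap2* rose in the S6K1 set, from 23, 30.9, 23 and 17.9 CPM in early WT to 36.2, 34.6, 33.5 and 41.4 CPM in late WT, with no overlap (log2 fold change 0.61, SE 0.18, adjusted p = 0.0391). The call held under 10 of 17 alternatives and was lost without any single early WT library other than replicate 2, and without late WT replicates 1, 2 or 4 (adjusted p 0.0651 to 0.0926 over these). *Tap2* in the *S6K1/S6K2* set was at 33 to 39.3 CPM in early WT and 29.5 to 38.8 CPM in late WT, a log2 fold change of 0.01 with a 95% interval of -0.25 to 0.28. *Tap1*, its partner in the transporter, was at 16 to 26 CPM in early WT and 22.5 to 24.9 CPM in late WT of the S6K1 set (log2 0.07, 95% interval -0.34 to 0.48). Its log2 fold change with passage in the *S6K1/S6K2* set was -0.24 (interval -0.59 to 0.12). *Tapbp* had a log2 fold change of 0.00 in both sets, with intervals of -0.51 to 0.52 and -0.32 to 0.32.

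*Psmb8* encodes the immunoproteasome subunit β5i (LMP7), which replaces the constitutive β5 subunit encoded by *Psmb5*. In early WT of the S6K1 set it was at 12.3, 49, 22.7 and 17.8 CPM, in late WT at 63.5, 36.4, 26.9 and 46.9 CPM and in KO libraries at 14.1, 30.1 and 17.3 CPM. The early WT libraries spanned a range that took in 3 of the 4 late WT libraries, and the passage change was 0.76 on the log2 scale (SE 0.41, adjusted p = 0.256). Without early WT replicate 2, the highest of its group, the change was 1.30 (adjusted p = 0.0422). It passed under 1 of 17 alternatives, over which the change ran from 0.52 to 1.30. *Psmb8* in the *S6K1/S6K2* set was at 21, 22.4, 19.7 and 14.5 CPM in early WT, 27.3, 33.8, 29.1 and 17.6 CPM in late WT and 12.1, 10.1 and 9.33 CPM in DKO libraries. Late WT and early WT overlapped, and the passage change of 0.52 (SE 0.20) did not pass (adjusted p = 0.1), while all 3 DKO libraries lay below all WT libraries of the set. *Nlrc5* had 16 to 76 reads a library, at 1.66 to 3.71 CPM in early WT, 2.9 to 4.57 in late WT and 2.04 to 2.29 in KO libraries of the S6K1 set. Its log2 fold change with passage was 0.32 (95% interval -0.33 to 0.97) in the S6K1 set and 0.24 (-0.52 to 1.00) in the *S6K1/S6K2* set.

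A direct test of whether the passage effect differed between the sets called 0 of the 9 members, against 0.712% of 14886 genes in either direction. DESeq2 also called 0 members, and 2 of 9 had an unadjusted p under 0.05. These were *Tap2*, with a difference of -0.63 between the log2 fold changes (*S6K1/S6K2* set minus S6K1 set, SE 0.21, adjusted p = 0.292), and *H2-D1*, with -0.66 (SE 0.29, adjusted p = 0.464). The difference was negative for 9 of 9 members, with a median of -0.34, and the sets cannot be told apart from the breeding they came from.

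At late passage, loss of both kinases went with lower *H2-D1*, *H2-K1* and *Psmb8*. Against late WT of the *S6K1/S6K2* set, *H2-D1* in DKO was at 0.531 of the WT level (log2 fold change -0.91, SE 0.12, adjusted p = 0.00363). *H2-K1* was at 0.642 (log2 -0.64, SE 0.14, adjusted p = 0.021) and *Psmb8* at 0.39 (log2 -1.36, SE 0.22, adjusted p = 0.007). Thus 3 of the 9 members fell and none rose, against 3.95% of 14365 genes called lower. The DKO libraries lay below all late WT libraries for each of the 3 genes. The *H2-D1* call held under all 17 alternatives (adjusted p 1.69e-09 to 0.0364), that of *Psmb8* under 15 and that of *H2-K1* under 12. Without DKO replicate 2 neither *Psmb8* (adjusted p = 0.0584) nor *H2-K1* (adjusted p = 0.137) passed. *H2-K1* was also lost without DKO replicate 3 (adjusted p = 0.0952) or late WT replicate 2 (adjusted p = 0.0635), and with only the 2 groups compared in the fit (adjusted p = 0.0655). With all 6 groups in the fit, neither *H2-K1* (adjusted p = 0.19) nor *Psmb8* (adjusted p = 0.0572) passed.

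None of the other 6 members passed in DKO against late WT. *B2m* was at 1.05 of the late WT level in DKO (log2 0.07, 95% interval -0.44 to 0.59), *H2-T23* at 0.934 (interval -0.51 to 0.31), *Tapbp* at 1.08 (interval -0.24 to 0.45) and *Tap1* at 1.14 (interval -0.20 to 0.57). *Tap2* was higher in all 3 DKO libraries (49.7, 39.1 and 47.4 CPM) than in all 4 late WT libraries (38.6, 38.8, 29.5 and 31.2 CPM). That difference did not pass (log2 0.40, SE 0.13, adjusted p = 0.122). *Nlrc5* was at 2.33, 1.51 and 1.17 CPM in DKO and 4.13, 5.26, 1.67 and 3.95 CPM in late WT libraries, a log2 fold change of -1.17 (SE 0.40, adjusted p = 0.135) at these low counts. Without late WT replicate 3, the lowest of its group, it was -1.40 (adjusted p = 0.0483). It passed under 1 of 17 alternatives, over which it ran from -1.47 to -0.95. The median over the 9 members was -0.10, against -0.01 over all genes. Macrophage markers moved alongside: 16 of 17 fell in DKO against late WT, with a median of -2.47 on the log2 scale, and their part in the lower *H2-D1*, *H2-K1* and *Psmb8* was not tested.

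In the S6K1 set, 0 of 9 members differed between KO and late WT, against 0.0425% of 14132 genes, which is 6 genes. DESeq2 also called 0 members. A single member, *Psmb8*, had an unadjusted p under 0.05, as did 1499 genes in all. *Psmb8* was at 0.472 of the late WT level in KO (log2 -1.08, 95% interval -2.07 to -0.09, adjusted p = 0.431). *H2-K1* was at 0.651 (log2 -0.62, interval -1.28 to 0.04) and *H2-D1* at 0.713 (log2 -0.49, interval -1.09 to 0.11). Each of these intervals took in the DKO estimate for the same gene. KO replicate 2 held the highest value of its group for 9 of the 9 members, for instance 263 CPM of *H2-D1* against 168 and 144 CPM. Without it the KO values were -0.79 for *H2-D1*, -0.98 for *H2-K1* and -1.48 for *Psmb8*, and none passed. These were the largest falls among the 17 alternatives. The smallest were -0.32 for *H2-D1*, -0.32 for *H2-K1* and -0.31 for *Psmb8*, and no alternative called any of the 3 genes. With a library left out, the smallest falls were -0.45 for *H2-K1* and -0.84 for *Psmb8*, so the smaller ones came from other settings. Y-linked transcripts were present in all 3 KO libraries and in 1 of the 4 late WT libraries, so genotype was largely confounded with embryo sex here. For *Nlrc5* the 3 KO libraries lay below the late WT range (log2 -0.64, interval -1.35 to 0.08, adjusted p = 0.535). *B2m* was at 1.07 of the late WT level (interval -0.43 to 0.62). Of the macrophage markers 0 of 17 passed here, with a median of -0.87 on the log2 scale and a negative value for 17 of 17.

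The difference between the 2 knockout effects was tested directly over all 22 libraries, and 0 of 9 members passed, against 0.00672% of 14886 genes in either direction. DESeq2 also called 0 members, and 1 member, *Tap2*, had an unadjusted p under 0.05. For *H2-D1* the DKO effect minus the KO effect was -0.41 (SE 0.31, 95% interval -1.06 to 0.24). For *H2-K1* it was -0.00 (interval -0.72 to 0.72) and for *Psmb8* -0.26 (interval -1.38 to 0.86). For *Tap2* it was 0.51 (interval 0.03 to 1.00, adjusted p = 0.427). The loss of 1 kinase and of both were therefore not shown to differ in any member. The intervals leave room for differences of more than 1 log2 unit in *H2-D1*, *Psmb8* and *Nlrc5* (-1.58 to 0.54 for *Nlrc5*).

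**Figure D3:**
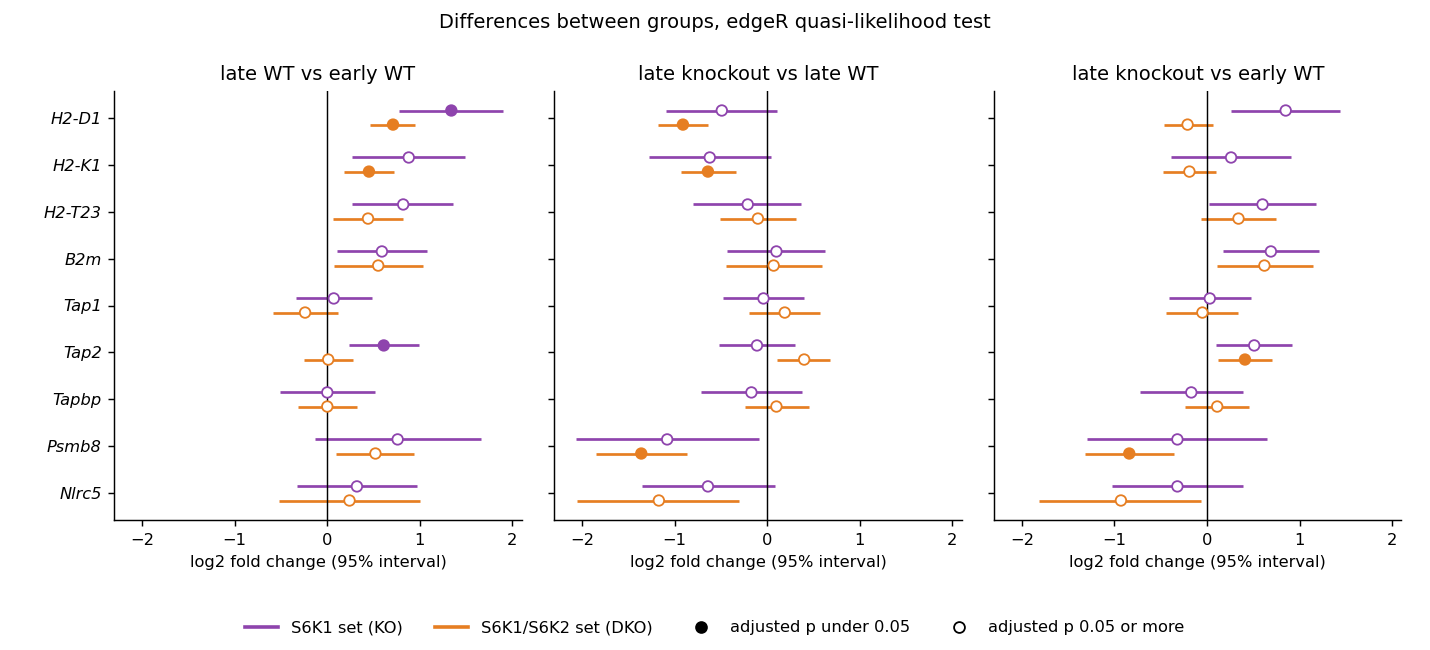
Log2 fold changes (horizontal axis) with 95% intervals for the 9 members in 3 comparisons, for the S6K1 set with its KO (purple) and the S6K1/S6K2 set with its DKO (orange), with filled points where the adjusted p was under 0.05. The heavy chains H2-D1 and H2-K1 lie right of 0 with passage and left of 0 in both knockouts against late WT, where Psmb8 lies farthest left. For KO against late WT the intervals of H2-D1 and H2-K1 take in 0. The heavy chain H2-T23 lies on the same sides, with intervals that take in 0 for both knockouts against late WT. The intervals of Tapbp and Tap1 take in 0 throughout.

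The comparisons of late knockout with early WT share libraries with those above. Late DKO against early WT of the *S6K1/S6K2* set called 1 of 9 members higher, against 9.34% of 14365 genes called higher, and 1 of 9 lower, against 8.92% called lower. *Psmb8* was at 0.558 of the early WT level (log2 -0.84, SE 0.22, adjusted p = 0.0225), with all 3 DKO libraries below all 4 early WT libraries. The call was lost without early WT replicate 1 or 2 or DKO replicate 2 or 3 (adjusted p 0.0574 to 0.0865). It was also lost with all 6 groups in the fit (adjusted p = 0.143). *Tap2* was 1.33-fold higher (log2 0.41, SE 0.13, adjusted p = 0.0482), although 1 DKO library lay within the early WT range, and that call held under 3 of 17 alternatives. *H2-D1* (log2 -0.21, interval -0.47 to 0.06) and *H2-K1* (log2 -0.19, interval -0.48 to 0.10) did not differ detectably between DKO at passage 8 and WT at passage 3. *B2m* was higher in all 3 DKO than in all 4 early WT libraries (log2 0.62, interval 0.11 to 1.14, adjusted p = 0.0849). Late KO against early WT of the S6K1 set called 0 of 9 members, against 11.2% of 14132 genes in either direction, with 4 of 9 at an unadjusted p under 0.05 and 2 called by DESeq2. The larger values there were 0.85 for *H2-D1* (SE 0.27, adjusted p = 0.0627) and 0.69 for *B2m* (SE 0.24, adjusted p = 0.0799), both with no overlap between the groups. Macrophage markers were called higher for 13 of 17 in KO against early WT, whereas in DKO against early WT 1 of 17 was called, lower, and their part in these values was not tested.

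Pairs of related genes could also be compared by their counts within a library, where scaling cancels. The ratio of *H2-D1* to *H2-K1* counts was 1.45 ± 0.072 (SD, n = 4) in early WT, 1.73 ± 0.063 (n = 4) in late WT and 1.44 ± 0.062 (n = 3) in DKO of the *S6K1/S6K2* set. The late WT libraries (1.65 to 1.79) lay above all others of the set. In the S6K1 set the ratio was 0.79 to 1.37 in early WT, 1.19 to 1.88 in late WT and 1.42 to 1.59 in KO libraries, which overlapped. The ratio of *Psmb8* to *Psmb5* counts, an immunoproteasome against a constitutive subunit, was 0.119 to 0.139 in DKO, below every early WT (0.155 to 0.38) and late WT (0.189 to 0.439) library of its set. In the S6K1 set it was 0.161 to 0.355 in KO and 0.285 to 0.579 in late WT libraries. These ratios were described and not tested. In the longest vM1 transcript of *H2-D1*, 14.3% of the 50-base windows also occurred in other genes' transcripts, most often *H2-Q2*. For *H2-K1* the share was 8.87%, and 109 of its 138 shared windows were shared with *H2-D1*, the gene it is set against in the ratio above. For *H2-T23* it was 15.7%, most often with *H2-Q2*, for *Psmb8* 5.89%, with *Gm20496*, and for *B2m* 0, so part of the heavy-chain reads could have come from, or been lost to, near-identical copies. *Tap1* shared 6.47% of its windows, mostly with *Psmb9*, and *Tap2* 9.9%, with the overlapping gene model *Gm15821*.

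Class I molecules outside the members, which include the non-classical Qa, Tla and CD1 molecules and the class I-like *Hfe* and *Fcgrt*, were listed apart. Of 17 listed genes 9 passed the filter in the S6K1 set and 8 in the *S6K1/S6K2* set. *Hfe*, the class I-like regulator of iron uptake, rose with passage in the S6K1 set from 6.08 to 13.2 CPM (log2 fold change 1.12, SE 0.28, adjusted p = 0.0236), 1 of 9 against 6.96% of all genes called higher. *Cd1d1*, which presents lipids to NKT cells, was lower in KO than in early WT (log2 -1.33, SE 0.30, adjusted p = 0.0157), 1 of 9 against 5.24% of all genes called lower. *H2-Q4*, a Qa-region heavy chain, was lower in DKO than in early WT (log2 -1.22, SE 0.29, adjusted p = 0.0135), 1 of 8 against 8.92%. None of the list's genes passed with passage in the *S6K1/S6K2* set or between either knockout and late WT. Of the 10 other proteasome genes, which include the third immunoproteasome subunit *Psmb10* and the PA28 activator genes *Psme1* and *Psme2*, a single one passed in any comparison. It was *Psme3*, the nuclear PA28γ, lower in DKO than in early WT (log2 -0.45, SE 0.14, adjusted p = 0.0403), 1 of 10 against 8.92% of all genes. Among 8 genes for endoplasmic reticulum chaperones and peptide trimming, *Sec61a1*, the translocon channel, was lower in late than in early WT of the *S6K1/S6K2* set (log2 -0.64, SE 0.12, adjusted p = 0.0045) and lower in DKO than in early WT (log2 -0.66, SE 0.13, adjusted p = 0.00523). That was 1 of 8 in each comparison, against 4.89% and 8.92% of all genes called lower. *Erap1*, *Calr*, *Canx*, *Pdia3* and *Tapbpl* passed in no comparison.

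Of 32 transcription factors, receptors and regulators that control class I, 29 were tested in each fit. With passage 2 rose and 2 fell in the S6K1 set, and 2 rose and 4 fell in the *S6K1/S6K2* set. Over all genes 6.96% were called higher and 5.97% lower in the S6K1 set, and 8.28% higher and 4.89% lower in the *S6K1/S6K2* set, so the number of these regulators that rose was near the background. *Irf8*, a myeloid interferon regulatory factor, rose in both (log2 2.36, SE 0.32, adjusted p = 0.000551 and log2 2.49, SE 0.45, adjusted p = 0.00512). *Ifngr2*, a chain of the interferon-γ receptor, rose in both, by 0.62 (SE 0.13, adjusted p = 0.00724) and 0.63 (SE 0.14, adjusted p = 0.0119) on the log2 scale. *Irf9*, the DNA-binding subunit of ISGF3, fell in both (log2 -0.69, adjusted p = 0.0245 and log2 -0.82, adjusted p = 0.023). In the S6K1 set *Socs3*, an inhibitor of cytokine receptors, also fell (log2 -1.25, adjusted p = 0.0383). In the *S6K1/S6K2* set *Stat2* (log2 -1.94, adjusted p = 7.4e-05) and *Irf7* (log2 -1.98, adjusted p = 0.0025), which carry or amplify interferon signals, also fell. In DKO against late WT, *Irf8* alone of the list passed, at 4.72 against 21.8 CPM (log2 -2.21, SE 0.50, adjusted p = 0.0295). Between KO and late WT none passed. Against early WT, 2 rose and 1 fell in KO, and 1 rose and 4 fell in DKO. Over all genes 5.93% were called higher and 5.24% lower in KO, and 9.34% higher and 8.92% lower in DKO. Of these regulators *Stat2* alone differed in its passage effect between the sets (log2 difference -1.77, SE 0.32, adjusted p = 0.00623). The values of *Ifngr2* and *Irf9* in the *S6K1/S6K2* set are given beside those of the S6K1 set and were chosen after their values were seen.

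With passage, the interferon-induced genes fell as a list while *H2-D1* rose, and the part of these genes in the class I changes was not tested. Of 20 tested, 8 fell and none rose in the S6K1 set (median -0.82 on the log2 scale), and 16 fell and none rose in the *S6K1/S6K2* set (median -1.70). The shares of all genes called lower were 5.97% and 4.89%. *Isg15*, a ubiquitin-like modifier, fell from 175 to 50.9 CPM in the S6K1 set (log2 -1.79, adjusted p = 0.0234) and from 124 to 20.1 CPM in the *S6K1/S6K2* set (log2 -2.59, adjusted p = 0.00248). *Ifit1*, an RNA-binding antiviral effector, fell from 182 to 40.4 CPM in the S6K1 set (log2 -2.19, adjusted p = 0.0158). *Usp18*, which removes ISG15 and dampens the receptor, fell from 31.6 to 4.21 CPM in the *S6K1/S6K2* set (log2 -2.85, adjusted p = 0.00265). In DKO against late WT a single gene of the list passed, *Oas1a*, at 0.503 against 3.4 CPM (log2 -2.79, adjusted p = 0.0185), and none passed in KO against late WT. Summed over the list, levels were 686 to 1740 CPM in early WT, 403 to 826 in late WT and 399 to 651 in KO libraries of the S6K1 set. The sums were 592 to 1090, 314 to 501 and 299 to 359 CPM in the *S6K1/S6K2* set.

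**Figure D4:**
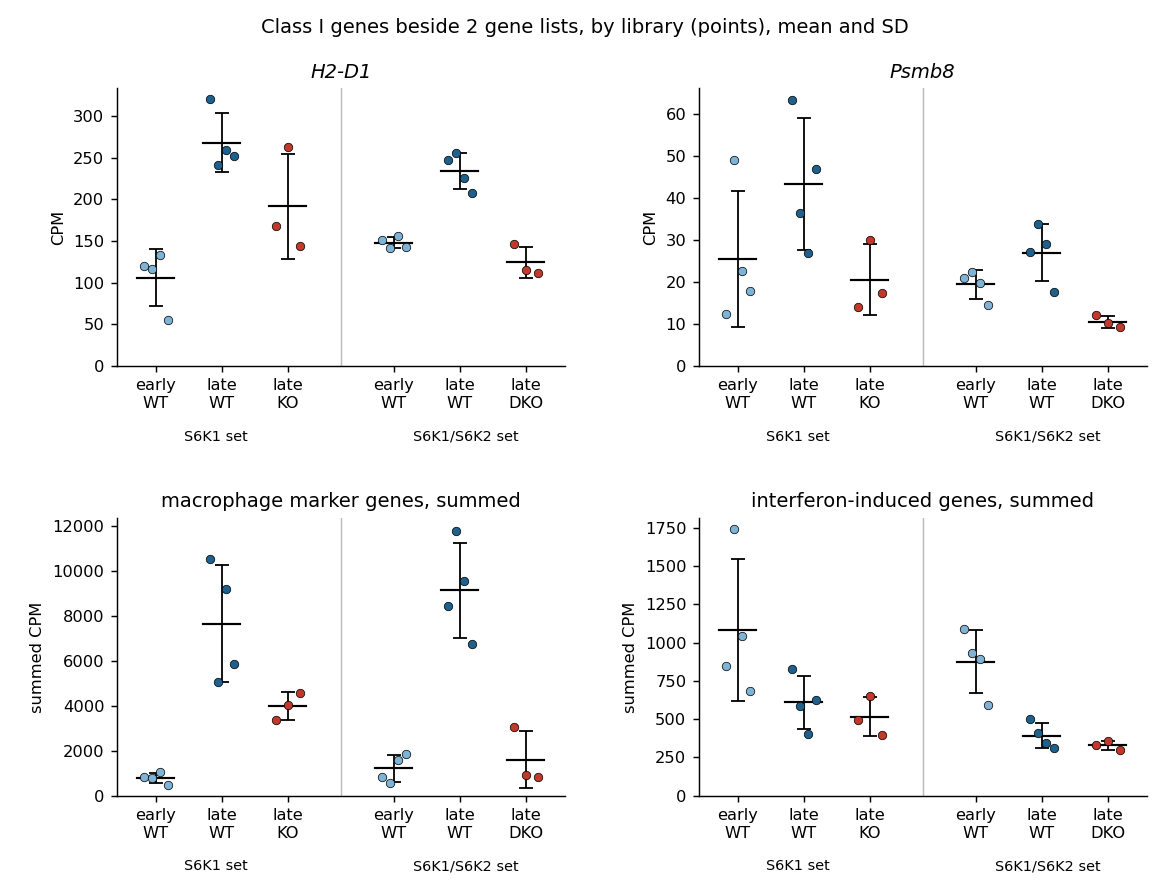
CPM of H2-D1 and Psmb8 (top) beside the summed CPM of 17 macrophage marker genes and 20 interferon-induced genes (bottom) in each library (points), with group mean and SD, vertical axes from 0. The macrophage sum is higher in all late WT (5070 or more) than in all early WT libraries (1860 or less), and the interferon-induced sum is lower in late WT than in early WT of the S6K1/S6K2 set. In DKO the macrophage sum lies below all late WT libraries of its set, whereas the interferon-induced sum (299 to 359) overlaps with late WT (314 to 501).

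MHC class II genes, expressed by professional antigen-presenting cells, stayed at a low level: the 6 genes summed to 4.12 to 19.8 CPM over all 22 libraries, and of the 5 and 4 tested none passed with passage or between knockout and late WT. Against early WT, *H2-DMb1* was higher in KO (log2 1.78, adjusted p = 0.00556) and *H2-Eb1* in DKO (log2 2.05, adjusted p = 0.0375). These were 1 of 5 tested in KO and 1 of 4 in DKO, against 5.93% and 9.34% of all genes called higher.

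Over the 22 libraries, the genes outside all lists whose log2 CPM ran most like the mean of the members were *Trim30a* (Pearson r = 0.76), *Ifi27l2a* (0.76), *Dram1* (0.76), *Slc46a3* (0.74) and *Zc3h12d* (0.74). By deviations from group means, which leave out the differences between groups, they were *Ifi27l2a* (r = 0.89), *1110059G10Rik* (0.83), *Parp9* (0.80), *Tmem42* (0.80) and *Zbp1* (0.80). The libraries share groups, depth and scaling, so these values are descriptions. Among the members, *H2-K1* (r = 0.94) and *Tap2* (0.82) lay closest to the mean of the others by deviations from group means, and *Nlrc5* (0.29) lay farthest. *H2-D1* and *H2-T23* had r = 0.87 with each other in the same measure. Early WT replicate 4 of the S6K1 set was the lowest library of its group for *H2-D1*, *H2-K1*, *H2-T23*, *B2m*, *Tap1* and *Tap2*.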

How the data were processed

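The deposited table holds raw read counts per gene, made by the authors from TruSeq Stranded mRNA single-end reads. The sources differ on the steps: the study's methods name TopHat, HTSeq and an earlier mouse build, whereas the submitters' processing notes name STAR 2.7.1a, DESeq2 1.28.1 and mm10. Coordinates and promoter sequences here are RefSeq's for GRCm38.p6, and exon lengths and transcripts are those of GENCODE vM1 on an older build. From the deposited counts, CPM were computed with TMM factors over all 22 libraries. Tests used edgeR 4.0.16 in R 4.3.3 (filterByExpr, TMM, robust quasi-likelihood, 1 fit of 3 groups per set, all 6 groups for differences between sets), at an adjusted p (Benjamini-Hochberg) of 0.05. This is a count test with DESeq2 1.42.0, named by the study, as an alternative. Scripts were tested on simulated data. Intervals are 95% from the fit. Symbols were matched by identifier without version.

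Groups came from titles. The labels do not tie libraries to embryos, so p-values measure the spread between these libraries, and numbers in a group follow accession order. Members and gene lists were chosen with earlier results of these data known. The genes named are the 10 members, up to 4 genes per pathway list and comparison that passed with the largest change and a mean of at least 1 CPM, and the 5 genes most like the members by each of 2 measures. Alternatives were DESeq2, RLE factors, no filter, other groups in the fit, a Y-linked covariate for embryo sex, and each library left out. Some genes of the lists are counted but not reported here by name.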

Additional observations from a re-analysis of the deposited data

Results flagged for a closer look

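In late WT of the S6K1 set, *Nlrc5* replicate 4 stood apart at 4.57 CPM against 2.9 to 3.03 CPM in the other 3 libraries, a gap that was 0.92 of the group's range. In early WT of the same set, *H2-T23* replicate 4 stood apart at 10.5 CPM against 26.3 to 29.5 CPM, a gap of 0.832 of the range. Of 36 such groups of 4 libraries examined, 2 were set apart in this way, and chance alone sets apart about 1 in 20. Without that early WT library the passage change of *H2-T23* was 0.58 on the log2 scale in place of 0.82.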

How the results depend on the processing

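No paired analysis was possible because the labels carry no replicate, litter or embryo number shared between groups, and the numbers used here follow accession order. No value of a member that was called changed sign under any alternative. Of the single-gene values under settings other than leaving out a library, 367 kept their side of the threshold, 12 lost a call and 17 gained one, with the cause not tested. With DESeq2, calls among the members were 5 rather than 2 with passage in the S6K1 set and 2 rather than 0 for KO against early WT. DESeq2 called 266 rather than 6 genes in all for KO against late WT, 2675 rather than 1578 for KO against early WT, 2845 rather than 1892 with passage in the *S6K1/S6K2* set and 1206 rather than 686 for DKO against late WT. For the differences between sets it called 222 rather than 106 genes with passage and 65 rather than 1 between knockouts. Fitting all 6 groups together gave 4 members with passage in the S6K1 set, 2 for KO against early WT, 1 with passage in the *S6K1/S6K2* set, 1 for DKO against late WT and 0 for DKO against early WT. That fit gave 16 genes in all for KO against late WT and 2564 for KO against early WT. With the Y-linked covariate, 1 member was called for KO against early WT and 1 with passage in the *S6K1/S6K2* set, with 3265 rather than 1827 genes in all for passage in the S6K1 set and 38 for KO against late WT. Without the filter, 1 member was called with passage in the *S6K1/S6K2* set and 1 for DKO against early WT, with 43 genes for KO against late WT and 3 for the difference between knockouts.

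With each library left out, members called ranged from 1 to 4 with passage in the S6K1 set, 0 to 1 for KO against early WT, 1 to 4 with passage in the *S6K1/S6K2* set, 1 to 4 for DKO against late WT and 0 to 2 for DKO against early WT. Over all genes the ranges were 2 to 9 for KO against late WT, 540 to 2055 for KO against early WT, 885 to 2247 with passage in the *S6K1/S6K2* set, 97 to 783 for DKO against late WT, 1163 to 2757 for DKO against early WT and 1 to 5 for the difference between knockouts. The lowest values for DKO against late WT, 1 member and 97 genes, came without DKO replicate 2. At 16 to 76 reads a library, small changes of *Nlrc5* were not detectable.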
